A study of Mus musculus with 4 samples.

Results

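Butyrate uptake, oxidation and ketogenesis were examined through 8 genes among the 16015 that were listed in colonic epithelial cells of mice with colitis. They were *Slc16a1*, *Slc16a3*, *Slc5a8* and *Bsg* for transport across the cell membrane, *Acads*, *Acadm* and *Cpt1a* for oxidation in mitochondria, and *Bdh1* for ketone bodies. The genes were chosen by these roles and with their values in these same libraries already known. Their differences are therefore given as a description, with a standard error (SE) and without a p-value, and the number that passed the test run on all genes is given only beside the share of all genes that did.

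Colitis had been induced with dextran sulfate sodium (DSS), a polysaccharide that injures the colonic epithelium. The 2 control mice were *Bmal1* fl/fl animals (labelled WT) and the 2 *Bmal1* cKO mice were *Villin-CreERT2; Bmal1* fl/fl animals, in which a tamoxifen-activated Cre under the *Villin* promoter acts in the intestinal epithelium. *Bmal1*, listed as *Arntl*, encodes a core transcription factor of the circadian clock. All mice were on a C57BL/6 background and aged 2 to 4 months, and they received 3% DSS in their drinking water for 5 days, followed by 2 days on plain water, and the epithelium was taken on day 7. Tamoxifen was injected on 5 consecutive days to activate Cre, and the methods do not say whether the controls, which carry the floxed alleles without Cre, were also injected. An effect of Cre and that of the deletion cannot be told apart, nor can one of tamoxifen if the controls were not injected.

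Values are normalized counts, that is, the reads counted for a gene after division by a size factor for sequencing depth. Changes are log2 fold changes of *Bmal1* cKO minus control on the log2(value + 1) scale from limma, and a gene passed the test with a Benjamini-Hochberg adjusted p under 0.05 over the 13983 genes whose mean was 10 or more. Sequencing depth was 10312791 to 14156639 reads on listed genes. *Arntl* itself had 358 and 342 normalized counts in controls and 341 and 289 in the mice labelled *Bmal1* cKO (log2 fold change -0.16, SE 0.14, adjusted p = 0.389), so every direction below is that of the labels. These values are sums over the whole gene and do not single out the floxed part. The epithelial label was checked on *Epcam*, an epithelial adhesion molecule, which had 17455 and 21772 normalized counts in controls and 18588 and 20320 in *Bmal1* cKO mice. Across all genes tested, 27.7% were lower and 29.0% higher in *Bmal1* cKO mice, 56.7% passed in one direction or the other, and in 82.1% the groups did not overlap. With library total scaling the split was 4885 lower and 3091 higher, and with each library scaled on 12 pan-epithelial markers it was 1979 and 6435, since these scalings moved the median of all genes from -0.04 to -0.26 and to 0.55. Relative to that median the change of *Slc16a1* stayed at 2.24 and 2.25, so scaling shifts all genes together.

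Butyrate is made by bacteria that ferment fibre in the gut lumen and is the main fuel of colonocytes. It enters the cell with a proton through monocarboxylate transporters or with sodium through a sodium-coupled transporter, is activated to butyryl-CoA in mitochondria, and is shortened to acetyl-CoA by beta-oxidation. Acetyl-CoA is burned in the citric acid cycle or turned into the ketone bodies acetoacetate and beta-hydroxybutyrate. Monocarboxylate transporters need an accessory glycoprotein, basigin or embigin, to reach the membrane.

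Upstream sequences are shown for the 3 transporters among the 8 genes whose levels differed most between the groups. They are the bases before the RefSeq transcription start (GRCm38.p6, plus strand), at chr3:104638414-104638663 for *Slc16a1*, chr10:88885742-88885991 for *Slc5a8* and chr11:120948817-120949052 for *Slc16a3*. The window of *Slc16a3* lies inside the GENCODE span of that gene, which begins upstream at 120948480. Capitals mark the E-box CACGTG, the motif bound by BMAL1 with CLOCK, and the motif ACGTG, the core of the hypoxia response element, searched on both strands. Each CACGTG also contains ACGTG.
Slc16a1: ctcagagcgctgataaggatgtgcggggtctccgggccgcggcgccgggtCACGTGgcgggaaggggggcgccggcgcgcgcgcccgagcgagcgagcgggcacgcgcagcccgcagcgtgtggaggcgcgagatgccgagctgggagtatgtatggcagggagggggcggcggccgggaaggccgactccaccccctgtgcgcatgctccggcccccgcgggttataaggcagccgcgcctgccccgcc
Slc5a8: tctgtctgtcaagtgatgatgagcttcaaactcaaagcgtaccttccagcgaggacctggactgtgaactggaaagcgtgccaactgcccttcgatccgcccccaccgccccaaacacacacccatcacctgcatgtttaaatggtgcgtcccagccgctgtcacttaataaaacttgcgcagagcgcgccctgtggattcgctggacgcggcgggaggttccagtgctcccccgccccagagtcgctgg
Slc16a3: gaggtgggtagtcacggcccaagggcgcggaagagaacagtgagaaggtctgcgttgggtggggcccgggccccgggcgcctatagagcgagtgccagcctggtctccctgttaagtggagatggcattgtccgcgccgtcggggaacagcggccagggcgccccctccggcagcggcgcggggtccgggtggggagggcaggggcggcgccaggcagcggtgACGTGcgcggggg
Of the 8 genes, 7 had such a window of 250 bases, and CACGTG was found in that of *Slc16a1* only, 200 bases before the start. The motif was present in 6.02% of all 32851 windows of this length. ACGTG outside an E-box was found in the window of *Slc16a3* only, at 27 and 14 bases before the start, the second lying in an annotated exon and not shown. ACGTG, within an E-box or outside one, was present in 16.6% of all windows. A match describes letters only and gives no evidence that a factor binds there.

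*Slc16a1* encodes MCT1, the proton-coupled monocarboxylate transporter through which butyrate, lactate and ketone bodies cross the membrane (chromosome 3, 104638668 to 104658462, GRCm38). It had 2451 and 2650 normalized counts in controls and 12038 and 11515 in *Bmal1* cKO mice. Both *Bmal1* cKO libraries lay far above both controls, and within each group the mice differed by at most 1.08-fold. The log2 fold change was 2.21 (SE 0.10), or 4.62-fold higher.

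*Slc5a8* encodes SMCT1, the sodium-coupled transporter that takes up butyrate at the luminal face of the colonocyte (chromosome 10, 88885992 to 88929515). Control mice had 999 and 1079 normalized counts, and *Bmal1* cKO mice 6506 and 8491. The groups were again well apart, with a log2 fold change of 2.84 (SE 0.15), or 7.15-fold higher, the largest rise among the 8 genes.

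*Slc16a3* encodes MCT4, which mainly exports lactate from glycolytic cells (chromosome 11, 120948480 to 120960868). In contrast to the other transporters it was low in *Bmal1* cKO mice, with 176 and 74.3 normalized counts against 329 and 1099 in controls. The groups did not overlap, but the control mice differed by 3.35-fold from each other. The log2 fold change of -2.38 (SE 0.66) became -3.25 without control mouse 1 and -1.51 without control mouse 2. The counts rested on 389 and 1298 reads in controls and on 171 and 55 reads in *Bmal1* cKO mice.

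*Bsg* encodes basigin, the accessory glycoprotein of MCT1 and MCT4 (chromosome 10, 79704491 to 79711969). Its levels overlapped between the groups, at 6320 and 7887 normalized counts in controls and 5649 and 6894 in *Bmal1* cKO mice (log2 fold change -0.18, SE 0.16, but 0.41 with the scaling on pan-epithelial markers). Per kilobase of exon, *Bsg* was the highest of the 8 genes in every library. The ratio of *Slc16a1* to *Bsg* per kilobase, which does not depend on the scaling of the libraries, was 0.159 and 0.138 in controls and 0.873 and 0.685 in *Bmal1* cKO mice. The ratio does depend on a correction for GC content and length, after which the log2 fold changes of these genes were 1.44 and 0.81, nearer to each other than 2.21 and -0.18 without it. The ratio of *Slc16a1* to *Slc16a3* was 8.96 and 2.90 in controls and 82.2 and 186 in *Bmal1* cKO mice. It depends on the correction too, after which the log2 fold changes of this pair were 1.44 and -1.57, against 2.21 and -2.38 without it. *Slc16a1* and *Slc5a8* kept a closer ratio, at 2.95 and 2.96 in controls and 2.23 and 1.63 in *Bmal1* cKO mice.

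**Figure D1:**
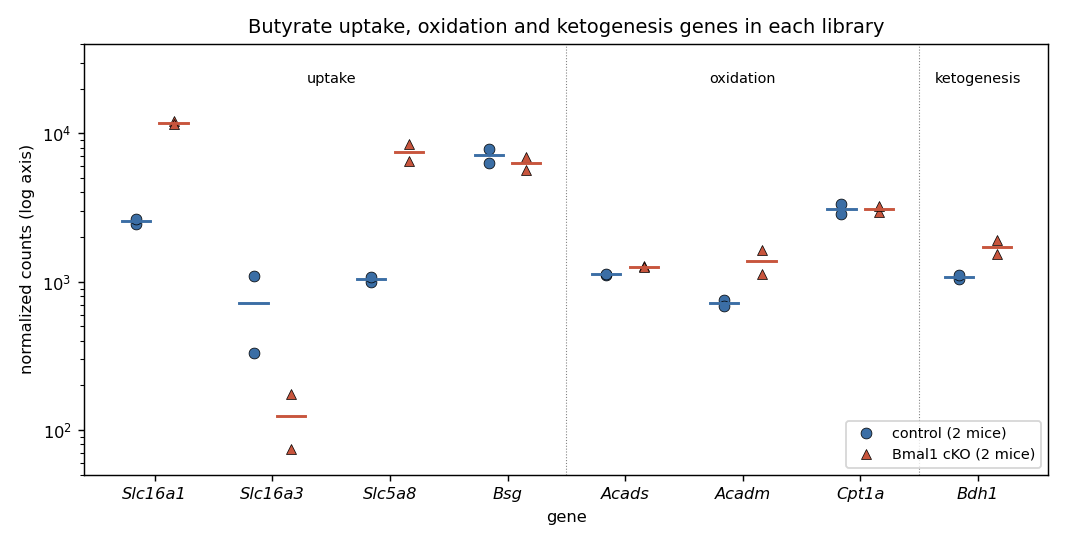
Normalized counts (log axis) of the 8 genes in the 2 control mice (circles) and the 2 *Bmal1* cKO mice (triangles), with short lines at the group means. *Slc16a1* and *Slc5a8* rise from 2451 and 2650 to 12038 and 11515 and from 999 and 1079 to 6506 and 8491, *Slc16a3* is low and scattered, and *Bsg* and *Cpt1a* overlap.

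Among the oxidation genes, *Acadm* was higher in *Bmal1* cKO mice while *Acads* and *Cpt1a* differed little before any correction for GC content. *Acads* encodes the short-chain acyl-CoA dehydrogenase, the first enzyme of beta-oxidation to act on butyryl-CoA (chromosome 5, 115110299 to 115119346). Its 1119 and 1128 normalized counts in controls and 1282 and 1250 in *Bmal1* cKO mice did not overlap, but the difference was small (log2 fold change 0.17, SE 0.09). Library total scaling turned it to -0.05, and the correction for GC content and length described below raised it to 1.46, above the 0.65 of *Acadm*, so that the order of these 2 genes depends on the correction.

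*Acadm* encodes the medium-chain acyl-CoA dehydrogenase, which takes longer acyl chains (chromosome 3, 153922357 to 153944632). The control mice had 759 and 688 normalized counts and the *Bmal1* cKO mice 1131 and 1626. Both *Bmal1* cKO libraries were above both controls, with a log2 fold change of 0.91 (SE 0.19), or 1.88-fold. Per kilobase, the ratio of *Acadm* to *Acads* was 0.393 and 0.353 in controls and 0.512 and 0.754 in *Bmal1* cKO mice.

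*Cpt1a* encodes carnitine palmitoyltransferase 1A, the gate through which long-chain fatty acids, but not butyrate, enter mitochondria (chromosome 19, 3322334 to 3385733). It had 3351 and 2875 normalized counts in controls and 2944 and 3263 in *Bmal1* cKO mice. The groups overlapped, and the log2 fold change was 0.00 in size (SE 0.12), between -0.11 and 0.11 with any mouse left out and between -0.23 and 0.59 under the other alternatives.

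*Bdh1* encodes beta-hydroxybutyrate dehydrogenase, which interconverts acetoacetate and beta-hydroxybutyrate (chromosome 16, 31422280 to 31458901). It was higher in *Bmal1* cKO mice, with 1534 and 1902 normalized counts against 1040 and 1114, a log2 fold change of 0.67 (SE 0.13), or 1.59-fold. Of its exon bases, 13.7% are shared with *Gm15743* on the opposite strand. Strand use in counting is not given in the sources used here, so reads of the 2 genes cannot be told apart there.

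By the test applied to all genes, 4 of the 8 genes were higher, 1 was lower and 3 did not pass, and in 6 the groups did not overlap. These counts stand beside 56.7% and 82.1% of all genes and, since the genes were chosen on this contrast, nothing is read from them. After a correction for GC content and length, described below, 6 were higher and 0 lower, with *Slc16a3* no longer passing, beside 17.3% of all genes higher and 18.1% lower, and again nothing is read from these counts. The median log2 fold change of the 8 genes was 0.42, against -0.04 for all genes tested, and 0.86 against -0.03 after the correction. Ordered by level per kilobase in controls, *Bsg* (mean 3916) was followed by *Slc16a1* (576), *Acads* (495), *Cpt1a* (407), *Bdh1* (277), *Slc5a8* (195), *Acadm* (185) and *Slc16a3* (134). The 2 control values of *Slc5a8* and *Acadm* overlapped, and those of *Slc16a3*, at 61.8 and 207, spanned both. In *Bmal1* cKO mice *Slc5a8* (1407) had moved up to the place behind *Bsg* (3457) and *Slc16a1* (2661), whereas *Bdh1* (442), *Cpt1a* (406) and *Acadm* (352) overlapped.

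The log2 fold change across the 13975 genes with a known GC content also followed that content, with Spearman's rho of -0.61 across genes, which are not independent replicates. The median change was 1.13 in the tenth of genes with the least GC, to which *Slc5a8* belongs with 40.5%, and -1.35 in the tenth with the most, to which *Bsg* (57.6%) and *Acads* (59.7%) belong. For *Slc16a1*, with 42.9%, the median of its class was 0.79. Set against genes of their own GC class, *Slc5a8* stood at the 99.2 percentile of log2 fold change, *Slc16a1* at 98.1, *Acads* at 96.5, *Bsg* at 93.3, *Bdh1* at 92.5, *Acadm* at 87.8, *Cpt1a* at 52.8 and *Slc16a3* at 13.0. Since the genes were chosen with this contrast in view, nothing is read from these ranks. After each library had been corrected by loess for GC content and length, the log2 fold change fell to 1.44 for *Slc16a1* and to 1.83 for *Slc5a8*. It was 0.65 for *Acadm*, 0.91 for *Bdh1* and -1.57 for *Slc16a3*, each in the direction seen without the correction. By contrast, *Acads* moved from 0.17 to 1.46 and *Bsg* from -0.18 to 0.81, whereas *Cpt1a* stayed near 0 at 0.10. An ordinary loess, tried first, also moved the median of all genes from -0.04 to 0.26, and gave 1.69 for *Slc16a1*, 2.07 for *Slc5a8*, 1.80 for *Acads*, 1.17 for *Bsg* and 0.41 for *Cpt1a*. Whether the relation with GC content is technical was not tested.

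**Figure D2:**
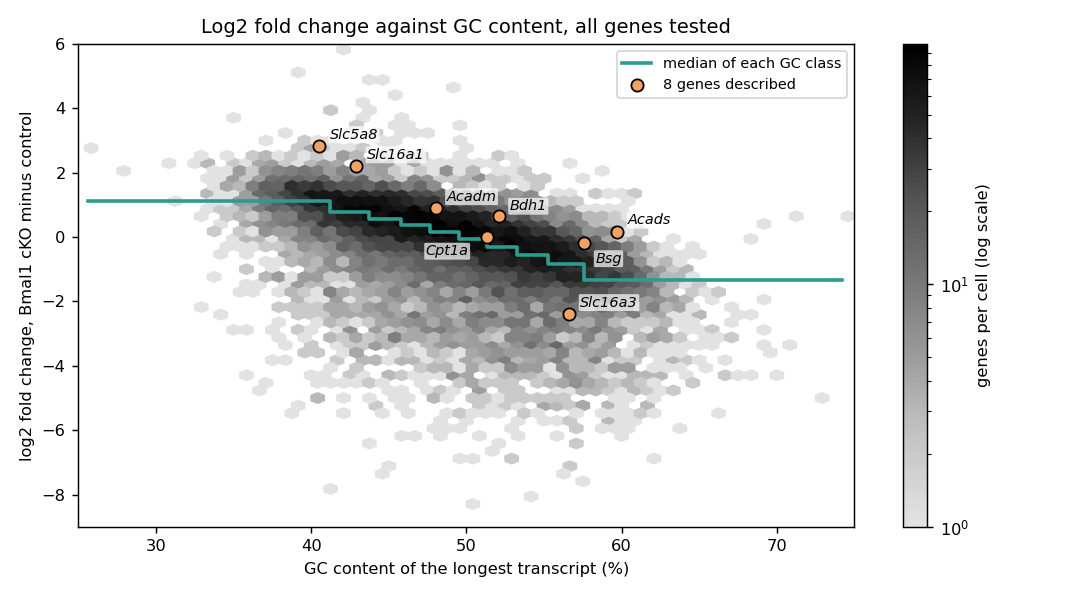
Log2 fold change (*Bmal1* cKO minus control) against GC content of the longest transcript in percent for all genes tested with a known GC content, as a density of grey cells with the median of each of 10 GC classes as a line and the 8 genes as orange points. The line falls from 1.13 to -1.35, *Slc5a8* and *Slc16a1* lie above it at low GC content, *Acads* and *Bsg* lie above it at high GC content, and *Slc16a3* lies below it.

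**Figure D3:**
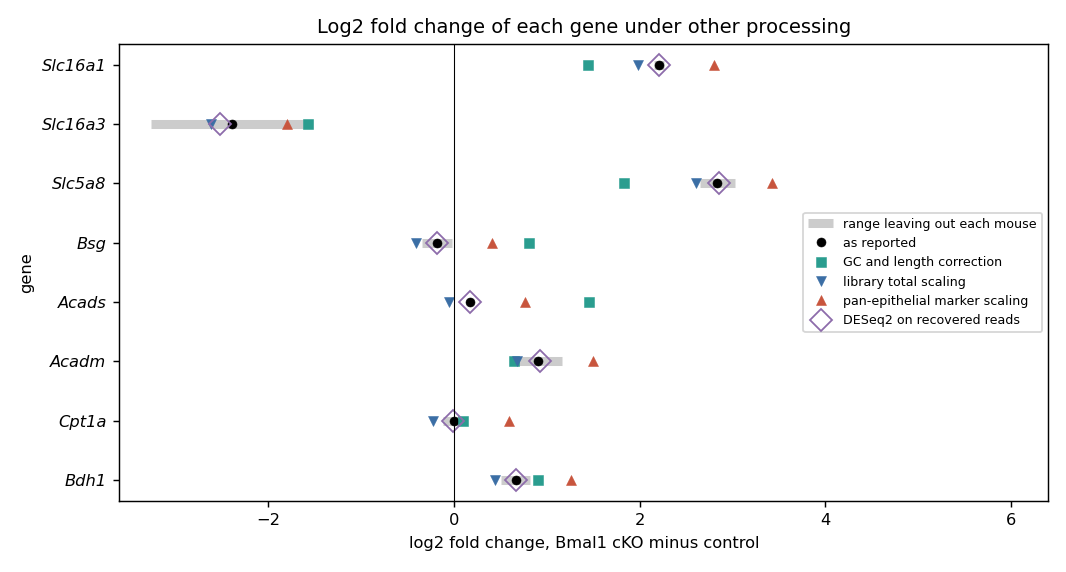
Log2 fold change of each of the 8 genes as reported (black), after the GC and length correction, under the scalings on library totals and on pan-epithelial markers, and from DESeq2, with a grey bar for the range when each mouse is left out. *Slc16a1* runs from 1.44 to 2.80 and *Slc5a8* from 1.83 to 3.43 over these, *Bsg* crosses 0 from -0.40 to 0.81, and the grey bar is widest for *Slc16a3*, from -3.25 to -1.51.

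Beyond these genes, the monocarboxylate carriers, butyrate receptors and accessory proteins in a list of 15 held genes that passed in either direction, and 12 of them were listed and 11 tested. Of these, 3 were lower, 2 were higher and 6 did not pass, with a median log2 fold change of 0.29, and these shares did not exceed the 27.7% lower and 29.0% higher of all genes. After the GC and length correction 2 were lower and 3 higher, and the median turned to -0.26. *Emb*, which encodes embigin, the other accessory protein of monocarboxylate transporters, had 212 and 213 normalized counts in controls and 22.6 and 25.7 in *Bmal1* cKO mice (log2 fold change -3.09, SE 0.26, adjusted p = 0.000688). Per kilobase, *Bsg* stood to *Emb* at 113 and 141 in controls and at 950 and 1022 in *Bmal1* cKO mice. *Slc16a12*, a creatine transporter of the same family, rose by 3.20 on the log2 scale (SE 0.26, adjusted p = 0.000682, and 2.55 after the correction) from 35.5 and 25.4 to 281 and 288 normalized counts. *Abcg2*, an ATP-driven efflux pump, was higher by 2.07 (SE 0.21, adjusted p = 0.00103, and 0.93 after the correction), and *Slc16a6*, which encodes MCT7, was lower, at -1.10 (SE 0.17, adjusted p = 0.0042). The third gene that was lower, *Slc16a11*, was named after its values were seen, at -2.65 without and -0.97 with the GC and length correction. Among the receptors for short-chain fatty acids, *Ffar2* did not pass, with 126 and 187 normalized counts in controls and 66.9 and 132 in *Bmal1* cKO mice (log2 fold change -0.70, SE 0.40, adjusted p = 0.18). *Hcar2*, the receptor for beta-hydroxybutyrate and butyrate, did not pass either. It had 49.0 and 344 normalized counts in controls and 22.6 and 23.0 in *Bmal1* cKO mice (log2 fold change -2.46, SE 0.89, adjusted p = 0.0618). It passed as lower by edgeR, DESeq2, library total scaling and the replicate block, and its value was -3.86 without control mouse 1, where it also passed, and -1.07 without control mouse 2.

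Genes for activation and mitochondrial beta-oxidation were more often higher than lower, although with library total scaling 6 were higher and 5 lower. Of 30 in the list, 25 were tested, and 12 were higher, 4 were lower and 9 did not pass (29.0% and 27.7% of all genes were higher and lower), with a median log2 fold change of 0.40 against -0.04 for all genes (0.16 against -0.03 after the GC and length correction). After the GC and length correction, when 17.3% of all genes were higher and 18.1% lower, 7 were higher and 2 lower, and 6 were higher both with and without the correction. With the ordinary loess 12 were higher and 1 lower. Without control mouse 2 and without *Bmal1* cKO mouse 2 the number higher was 5 and 6. *Hadh*, which encodes the short-chain hydroxyacyl-CoA dehydrogenase, had 1267 and 1549 normalized counts in controls and 2388 and 3022 in *Bmal1* cKO mice (log2 fold change 0.94, SE 0.16, adjusted p = 0.00534, and 1.04 after the correction). *Acaa2*, the mitochondrial thiolase of the last step, rose by 0.69 (SE 0.16, adjusted p = 0.015, and 1.10 after the correction), and *Acss2*, which activates acetate, rose by 1.16 (SE 0.16, adjusted p = 0.00284, and 0.85 after the correction). *Echs1*, the short-chain enoyl-CoA hydratase, did not pass (log2 fold change 0.46, SE 0.17, adjusted p = 0.0708), nor did *Acsm3*, a butyryl-CoA ligase (0.08, SE 0.20, adjusted p = 0.738). After the correction *Acsm3* passed as lower, at -0.80 (adjusted p = 0.0299), and with the scaling on pan-epithelial markers it passed as higher, at 0.68.

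The subunits of the mitochondrial trifunctional protein, which handles long chains, moved unequally. *Hadhb* had 1787 and 1737 normalized counts in controls and 4111 and 4648 in *Bmal1* cKO mice (log2 fold change 1.31, SE 0.10, adjusted p = 0.00059), whereas *Hadha* stayed between 2721 and 3061 in all 4 libraries (-0.06, SE 0.10, adjusted p = 0.623). Their GC contents were 39.1% and 51.3%, and after the correction the values were 0.17 and 0.05. The isomerases *Eci2* and *Eci1* were lower, at -0.64 (SE 0.16, adjusted p = 0.0211) and -0.61 (SE 0.17, adjusted p = 0.0262), and *Eci1* lay at -0.13 after the correction. The other 2 lower genes, named after their values were seen, were *Etfb*, at -0.48 without and 0.52 with the correction, after which it passed as higher (adjusted p = 0.0491), and *Cpt1c*, at -2.44 and -1.74, which no longer passed (adjusted p = 0.0684).

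In ketone body metabolism the genes did not move together. Of 8 in the list, 6 were tested, 2 were higher, 1 was lower and 3 did not pass, beside 29.0% higher and 27.7% lower of all genes, and 1 was higher and 0 were lower when either of the control mice was left out. *Oxct1*, which activates acetoacetate so that ketone bodies can be burned, rose from 2222 and 2751 to 4530 and 5249 normalized counts (log2 fold change 0.98, SE 0.14, adjusted p = 0.00315, and 0.69 after the correction). *Acat1*, the acetoacetyl-CoA thiolase, was higher by 0.45 (SE 0.13, adjusted p = 0.0304), but lay at -0.07 after the correction. *Hmgcll1*, named after its value was seen, was the gene that was lower (-1.20, SE 0.36, adjusted p = 0.0357), but was not called by edgeR or DESeq2.

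Peroxisomal beta-oxidation, which shortens very long and branched chains, held 14 tested genes of 15, of which 6 were higher, 0 were lower and 8 did not pass by limma, beside 29.0% higher and 27.7% lower of all genes. None was lower at an unadjusted p under 0.05 either, and edgeR and DESeq2 also gave 6 higher and 0 lower. After the GC and length correction 8 were higher, among them these 6, beside 17.3% of all genes, and 9 were higher with the ordinary loess. *Crot*, the carnitine octanoyltransferase, had 438 and 444 normalized counts in controls and 1291 and 1414 in *Bmal1* cKO mice (log2 fold change 1.61, SE 0.10, adjusted p = 0.000533, and 0.95 after the correction). *Ehhadh*, the bifunctional enzyme, rose by 1.26 (SE 0.15, adjusted p = 0.00173).

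Among regulators 7 of 14 tested genes were lower, 5 were higher and 2 did not pass, beside 27.7% lower and 29.0% higher of all genes. After the GC and length correction 3 were lower and 4 higher, beside 18.1% lower and 17.3% higher of all genes. The nuclear receptor *Ppara*, which drives fatty acid oxidation genes, was higher in *Bmal1* cKO mice, with 81.3 and 127 normalized counts against 40.5 and 44.9 (log2 fold change 1.23, SE 0.33, adjusted p = 0.0247). *Pparg* rose by 0.61 (SE 0.11, adjusted p = 0.00674) and the coactivator *Ppargc1a* by 1.20 (SE 0.34, adjusted p = 0.0287), the latter to 0.28 after the correction. Other regulators, named after their values were seen, were lower: *Esrra* at -0.76, *Rxra* at -0.48, *Ppard* at -0.33 and *Creb3l3* at -1.62. After the correction these values were -0.75, 0.39, -0.10 and -0.84. *Angptl4* was lower too, at -4.07, but the control mice had 345 and 33.0 normalized counts. The acetyl-CoA carboxylases, which make malonyl-CoA, moved in opposite directions. *Acaca*, the cytosolic form that feeds fatty acid synthesis, rose from 725 and 783 to 1577 and 1496 normalized counts (1.03, SE 0.10, adjusted p = 0.000894). *Acacb*, the form at the mitochondrion, whose product restrains CPT1, fell from 656 and 533 to 112 and 115 (-2.37, SE 0.16, adjusted p = 0.000537). After the correction these were 0.85 and -1.56. *Mlycd*, which breaks malonyl-CoA down, was lower, at -1.03 (SE 0.17, adjusted p = 0.00475), but was 0.17 after the correction.

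**Figure D4:**
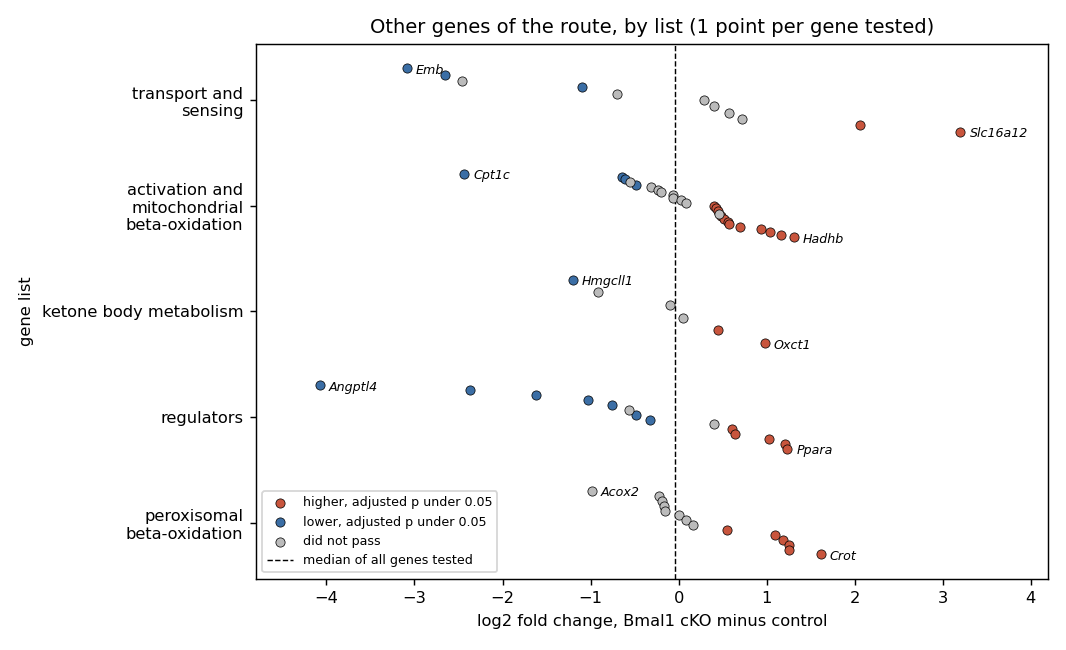
Log2 fold change (*Bmal1* cKO minus control) of every tested gene in 5 lists of the route, colored by whether it was higher, lower or did not pass, with the median of all genes as a dashed line. Mitochondrial beta-oxidation has 12 higher and 4 lower genes, peroxisomal beta-oxidation 6 and 0, and regulators 5 and 7.

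The patterns closest to those of the monocarboxylate transporters over the 4 libraries were sought among 9982 genes whose mean reached 100 or more, by the Euclidean distance of the centred log2 values. For *Slc16a1* they were *Chic1* (distance 0.084), *Slc13a2os* (0.116), an antisense RNA whose reads may be shared with its partner, and *2610037D02Rik* (0.128). For *Slc16a3* they were *Csf3r* (0.391), *Tnfrsf23* (0.414) and *Lilrb4a* (0.507). *Csf3r*, the granulocyte colony-stimulating factor receptor, had 142 and 501 normalized counts in controls and 58.6 and 35.1 in *Bmal1* cKO mice, so that it too was highest in control mouse 2.

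Markers of cells other than the epithelium were lower in *Bmal1* cKO mice, as were *Slc16a3*, *Emb* and, without passing the test, *Hcar2*. Of 18 leukocyte markers, 14 were lower and 0 higher by limma, beside 27.7% lower and 29.0% higher of all genes. The summed level of these markers was 17209 and 26896 normalized counts in controls and 4238 and 4014 in *Bmal1* cKO mice. *S100a8*, a calcium-binding protein of neutrophils, had 1424 and 8066 normalized counts in controls and 362 and 174 in *Bmal1* cKO mice, the highest again in control mouse 2. The lowest leukocyte marker had 2 reads in a library, so none was at 0. Of 14 stromal and endothelial markers, 12 were lower and 0 higher by limma, and their sum was 15947 and 3708 normalized counts in controls and 511 and 580 in *Bmal1* cKO mice, with desmin (*Des*) at 0 and 1 reads in the latter. In both lists the number higher was also 0 at an unadjusted p under 0.05 and by edgeR and DESeq2. The numbers lower were 5 leukocyte and 6 stromal and endothelial markers without *Bmal1* cKO mouse 1, and 7 and 6 without *Bmal1* cKO mouse 2. Their part in the levels of *Slc16a3*, *Emb* and *Hcar2* was not tested. In bulk samples, fewer cells of a type and less RNA per cell cannot be told apart.

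Epithelial markers were mixed, and their counts stand beside 27.7% lower and 29.0% higher of all genes. After the GC and length correction 18.1% of all genes were lower and 17.3% higher. Of 12 pan-epithelial markers, 6 were lower and 0 higher by limma without the GC and length correction, but 0 were lower and 4 higher with it, and their sum was 151459 and 172124 normalized counts in controls and 127099 and 134749 in *Bmal1* cKO mice. The ratio of *Slc16a1* to *Epcam* per kilobase was 0.0696 and 0.0604 in controls and 0.321 and 0.281 in *Bmal1* cKO mice. That of *Slc5a8* to *Epcam* was 0.0236 and 0.0204 against 0.144 and 0.172. Both ratios depend on the GC and length correction, after which the log2 fold change was 0.34 for *Epcam*, 1.44 for *Slc16a1* and 1.83 for *Slc5a8*. Of 13 tested markers of mature absorptive colonocytes, the cells that use butyrate most, 3 were lower, 2 were higher and 8 did not pass. These shares did not exceed those of all genes, and after the correction 1 marker was lower and 3 were higher. Among them, the chloride exchanger gene *Slc26a3* rose (log2 fold change 2.13, SE 0.35, adjusted p = 0.00486) and the carbonic anhydrase gene *Car4* fell (-1.97, SE 0.34, adjusted p = 0.00595). Of 10 crypt base and progenitor markers, 3 were lower, 3 higher and 4 did not pass, which is near the shares of all genes. Their median log2 fold change was 0.05, and -0.42 after the correction. Named after their values were seen, *Lgr5*, a marker of intestinal stem cells, rose from 24.5 and 76.2 to 275 and 339 normalized counts (log2 fold change 2.79, SE 0.53, adjusted p = 0.00814, and 2.17 after the correction) and *Smoc2* rose by 1.97 (SE 0.24, adjusted p = 0.00191, and 1.74 after the correction). Others of the list went the other way. Relative to the median of all genes, *Ascl2* lay at -1.87 and *Axin2* at -1.04 (-0.58 and -0.50 after the correction). *Olfm4*, another stem cell marker, fell from 14 and 50 reads to 2 and 1 (adjusted p = 0.0333), too few for a fold change to be given. The part of a change in these cells in the levels of *Slc16a1* and *Slc5a8* was not tested.

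**Figure D5:**
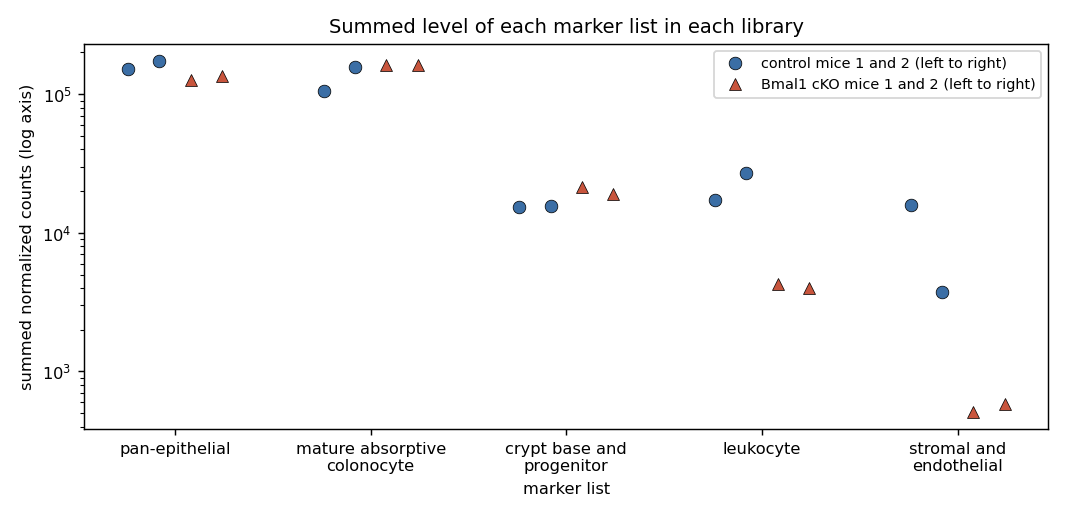
Summed normalized counts (log axis) of 5 marker lists in each of the 2 control mice (circles) and the 2 *Bmal1* cKO mice (triangles). Leukocyte markers lie at 17209 and 26896 against 4238 and 4014 and stromal and endothelial markers at 15947 and 3708 against 511 and 580, while the epithelial lists differ less.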

How the data were processed

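Colonic epithelial RNA of 2 control and 2 *Bmal1* cKO mice was sequenced. The authors aligned reads to GRCm38 with STAR, normalized gene counts with DESeq2 and deposited, for 16015 genes, a signal for each library, which is the count of a gene after division by the library's size factor. The counter and annotation are not given in the sources used here, and the labels and the methods name different library kits. The deposited group comparisons (mean, fold change, standard error, statistic and p-values) were not used. Whole reads (tolerance 0.02) were recovered for 100% of values. Groups were taken from the labels. Replicates of one group differed by more than sampling noise (chi-square per gene 42.1 between controls and 11.1 between *Bmal1* cKO mice).

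Values were taken to log2(value + 1), and 13983 genes whose mean was 10 or more were tested two-sided by limma 3.58.1 (R 4.3.3), which fitted a trend of variance on mean. P-values were adjusted by Benjamini-Hochberg over all genes, with a threshold of 0.05. This understates changes of genes with few reads. Gene positions, GC content of the longest transcript and lengths (union of exons) came from GENCODE M21 for 16008 matched genes, and upstream windows from RefSeq. The deviations of same-numbered mice were not correlated (Pearson's r -0.09 over genes), so mice were not paired. Alternatives were other pseudocounts (0.5 and 5), filters (none and a mean of at least 50) and scalings, edgeR 4.0.16 and DESeq2 1.42.0 on recovered reads, a correction for GC content and length (robust loess, span 0.3, applied library by library and keeping the median), a replicate block, and leaving out each mouse. The correction was first run as an ordinary loess that let the median move. The robust form replaced it after its results had been seen, because the ordinary form had shifted the median of all genes, and that form is kept as an added alternative chosen after seeing the data. An exact permutation test cannot reach 0.05 with 2 mice in a group. The genes and lists were chosen with earlier results of these data known. Named were the 8 genes, 16 genes of the route whatever their values (some are not reported here), and per list up to 2 genes that rose and 2 that fell most among those with an adjusted p under 0.05, a mean of at least 100 and no overlap.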

Additional observations from a re-analysis of the deposited data

How the results depend on the processing

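With 2 mice per group the counts depend on each mouse. The cause of the changes below was not tested. Leaving out each mouse, 2205 to 2852 of all genes were lower and 2654 to 3154 higher. In the lists the counts were 3 to 4 lower and 2 to 2 higher for transport and sensing, 1 to 3 and 5 to 8 for mitochondrial beta-oxidation, 0 to 1 and 1 to 2 for ketone body metabolism, 2 to 4 and 1 to 3 for regulators, and 0 to 0 and 5 to 6 for peroxisomal beta-oxidation. They were 4 to 8 lower and 0 to 0 higher for pan-epithelial, 1 to 2 and 0 to 2 for absorptive colonocyte, 1 to 4 and 2 to 3 for crypt base, 5 to 16 and 0 to 0 for leukocyte, and 6 to 13 and 0 to 0 for stromal and endothelial markers.

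With the GC and length correction 2536 of all genes were lower and 2411 higher. Mitochondrial beta-oxidation then had 2 lower and 7 higher genes, regulators 3 lower, pan-epithelial markers 0 lower and 4 higher, and absorptive colonocyte markers 1 lower. The ordinary loess for GC and length, which the robust form replaced after its results had been seen, gave 1659 lower and 4175 higher genes and a median of 0.26 over all genes. It gave 1 lower gene for mitochondrial beta-oxidation (12 higher), 2 lower for regulators, 0 lower and 7 higher pan-epithelial, 1 lower absorptive colonocyte and 1 lower crypt base markers. The replacement thus turned a surplus of higher genes into near balance. Pan-epithelial marker scaling gave 1979 lower and 6435 higher genes, 4 higher for transport and sensing, 1 lower for mitochondrial beta-oxidation, 0 lower and 4 higher for ketone body metabolism, and 2 lower for regulators. In the marker lists it gave 2 higher pan-epithelial, 4 higher absorptive colonocyte, and 1 lower and 6 higher crypt base genes. Library total scaling gave 5 lower and 6 higher for mitochondrial beta-oxidation, 2 lower and 1 higher for ketone body metabolism, 1 lower peroxisomal gene and 1 higher absorptive colonocyte marker. DESeq2 gave 2 lower for mitochondrial beta-oxidation and 4 higher absorptive colonocyte markers, and both edgeR and DESeq2 gave 0 lower for ketone body metabolism.

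The replicate block, in a fit that pairs mice by number although they share only a number, gave 3789 lower and 3899 higher genes and moved no list count by more than 1.5 times. The replicate block with the GC and length correction gave 2320 lower and 2166 higher genes, 2 lower and 6 higher for mitochondrial beta-oxidation, 3 lower for regulators, and 2 lower and 4 higher pan-epithelial markers. The log2 fold change of *Slc16a1*, *Slc5a8*, *Acadm* and *Bdh1* was above 0 and that of *Slc16a3* below 0 in all 17 alternatives, although *Slc16a3* did not pass after the GC and length correction. *Bsg*, *Acads* and *Cpt1a* changed sign in at least 1. Depth limits *Ffar3*, which was not tested. For *Slc16a3* the limit is the 3.35-fold spread between the control mice.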
